A study of Mus musculus with 47 samples.

Results

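The 41 genes described here encode the machinery that copies DNA in mouse cells, together with a few of its regulators and partners. They were taken as a list of gene symbols (*Orc1* to *Brca2*), matched to the rows of a count table of 56748 genes through the GENCODE annotation, and all 41 were found. RNA sequencing had been done on B78-D14 cells, an amelanotic mouse melanoma line derived from B16 that lacks *Cdkn2a*, and on tumors grown from them under the skin of immunocompetent adult male C57BL/6 mice. A mitochondrial cytosine base editor (DdCBE) had been used to place truncating G-to-A mutations in *Mt-Nd5*, which encodes a core subunit of respiratory complex I. Tumors carried m.12,436G>A at a heteroplasmy (the share of mutant mitochondrial genomes) of 60% (7 tumors) or 40% (7 tumors) or came from control cells (4 tumors), and are called 60%, 40% and control tumors. Cultures carried m.11,944G>A at 60% (4 cultures) or were control cells (4 cultures). Controls of both kinds are labelled wild type. All these samples are labelled untreated, each mutant group came from 1 edited cell population with its isogenic control, and the labels do not state the age of the mice or whether the replicates came from separate mice or cultures. The p-values therefore measure only the spread between these samples.

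Before a cell divides, origins of replication are licensed: the origin recognition complex (*Orc1*, *Orc6*) together with *Cdc6* and *Cdt1* loads the ring of MCM2 to MCM7 onto DNA. In S phase the ring is joined by *Cdc45* and the 4 GINS proteins to form the active helicase, after which primase, polymerases, the sliding clamp PCNA and its loader, and nucleotide-producing enzymes complete synthesis. Many of these genes are transcribed by E2F factors as cells pass from G1 into S phase, so their RNA is abundant in cycling cells and scarce in resting ones. In a bulk sample, fewer cycling tumor cells and less RNA per cell cannot be told apart.

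Total counts lay between 16475735 and 36173502 per library. The tests covered 16213 genes in tumors and 12930 in cultures, and all 41 replication genes were among both, with at least 79 counts in every library. Levels are given as CPM, counts relative to library size, scaled by the trimmed mean of M-values (TMM). Melanoma lineage markers were sparse in this amelanotic line: of 8 markers, *Tyr* had no count in either culture group, and *Tyr* and *Dct* had none in 60% tumors. Cultures had no count for any of 8 T and NK cell markers. The range of *Ptprc* and the summed marker levels below are CPM of total counts without TMM scaling. In tumors the leukocyte gene *Ptprc* lay between 49.7 and 99.6 CPM in controls, between 79.5 and 153 CPM in 60% tumors and between 54.6 and 106 CPM in 40% tumors.

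The first comparison asked how the replication machinery stood in tumors of higher heteroplasmy. *Orc6* and *Gins3* were lower in 60% than in control tumors, and no replication gene was higher. All 41 genes had a negative log2 fold change, with a median of -0.21 and a range from -0.40 to -0.00, while 50.6% of all genes tested were negative and their median was -0.003. At an adjusted p under 0.1 (edgeR quasi-likelihood test, Benjamini-Hochberg over all genes), 2 of 41 passed as lower beside 1.34% of all genes, and 0 passed as higher beside 0.962% of all genes. At an unadjusted p under 0.05, 15 were lower beside 8.31% of all genes and 0 were higher. The genes of 1 tumor share its composition, so these 41 signs are not 41 independent observations.

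**Figure D1:**
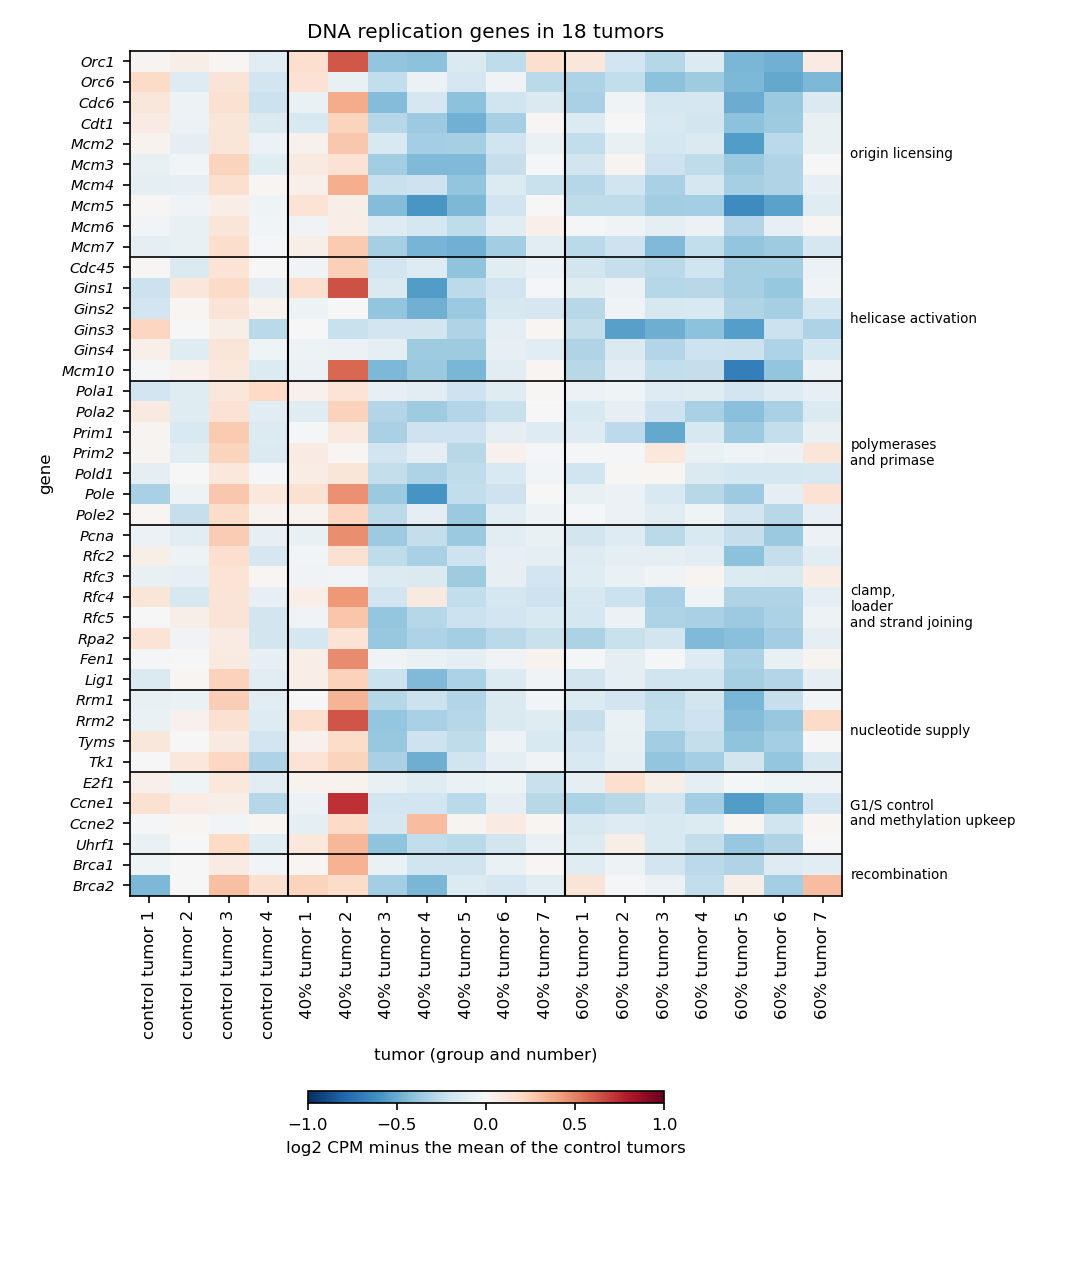
Heat map of the 41 replication genes (rows, grouped by role) in 18 tumors (columns, control, 40% and 60%), coloured by log2 CPM minus the mean of the 4 control tumors. Most cells of the 60% columns are blue (below the control mean), with all 41 fold changes negative, whereas 40% tumor 2 is red in most rows and is the highest of all 18 tumors for 26 of 41 genes.

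*Orc6* (ENSMUSG00000031697), a subunit of the origin recognition complex, lies on the plus strand of chr8:86026219-86034912 (GRCm39). It measured 35.4, 28.3, 33.9 and 27.1 CPM in the 4 control tumors. In 60% tumors it had a lowest value of 21.7, a median of 23.3 and a highest value of 26.1 CPM. Every 60% tumor was thus below every control tumor. The 60% mean was 23.7 ± 1.51 CPM (SD, n = 7) against 31.1 ± 4.10 CPM (SD, n = 4) in controls, and the log2 fold change was -0.40 (SE 0.084, adjusted p = 0.0296, edgeR). *Orc6* shares 8.45% of its exon bases with *Vps35* on the opposite strand, and whether counting used strand is not stated.

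*Gins3* (ENSMUSG00000031669), a subunit of the GINS complex, lies on the plus strand of chr8:96360081-96392066. Its control values were 14.7, 12.6, 13.2 and 10.50 CPM, and its 60% values had a lowest of 8.603, a median of 9.51 and a highest of 10.9 CPM. Only control tumor 4, the lowest control, fell inside the range of the 60% tumors. Its mean was 9.65 ± 0.964 CPM (SD, n = 7) at 60% against 12.7 ± 1.75 CPM (SD, n = 4) in controls, with a log2 fold change of -0.40 (SE 0.098, adjusted p = 0.0565, edgeR). Both calls depended on single control tumors: without control tumor 1 the adjusted p was 0.133 for *Orc6* and 0.219 for *Gins3*, and without control tumor 3 it was 0.195 and 0.219.

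Among the other licensing genes, *Mcm5* and *Mcm7*, subunits of the helicase ring, showed groups that did not overlap but missed the threshold. *Mcm5*, at chr8:75836140-75856231 on the plus strand, measured 156, 151, 162 and 151 CPM in controls, a tight range, against a lowest of 100, a median of 122 and a highest of 143 CPM in 60% tumors (log2 fold change -0.35, SE 0.12, adjusted p = 0.166, edgeR). *Mcm7* measured 141, 143, 170 and 150 CPM in controls and 111, 125 and 135 CPM at the lowest, median and highest 60% tumor (log2 fold change -0.30, SE 0.11, adjusted p = 0.205, edgeR). In all, 5 replication genes were lower in every 60% tumor than in every control tumor (*Orc6*, *Mcm5*, *Mcm7*, *Gins4* and *Brca1*), beside 2.66% of all genes, and 0 were higher in every one, beside 1.41%. The median over MCM2 to MCM7 was -0.23. The ring subunit *Mcm6* overlapped widely, with 205, 199, 227 and 205 CPM in controls and 170.0, 200 and 211 CPM at the lowest, median and highest 60% tumor (log2 fold change -0.08).

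**Figure D2:**
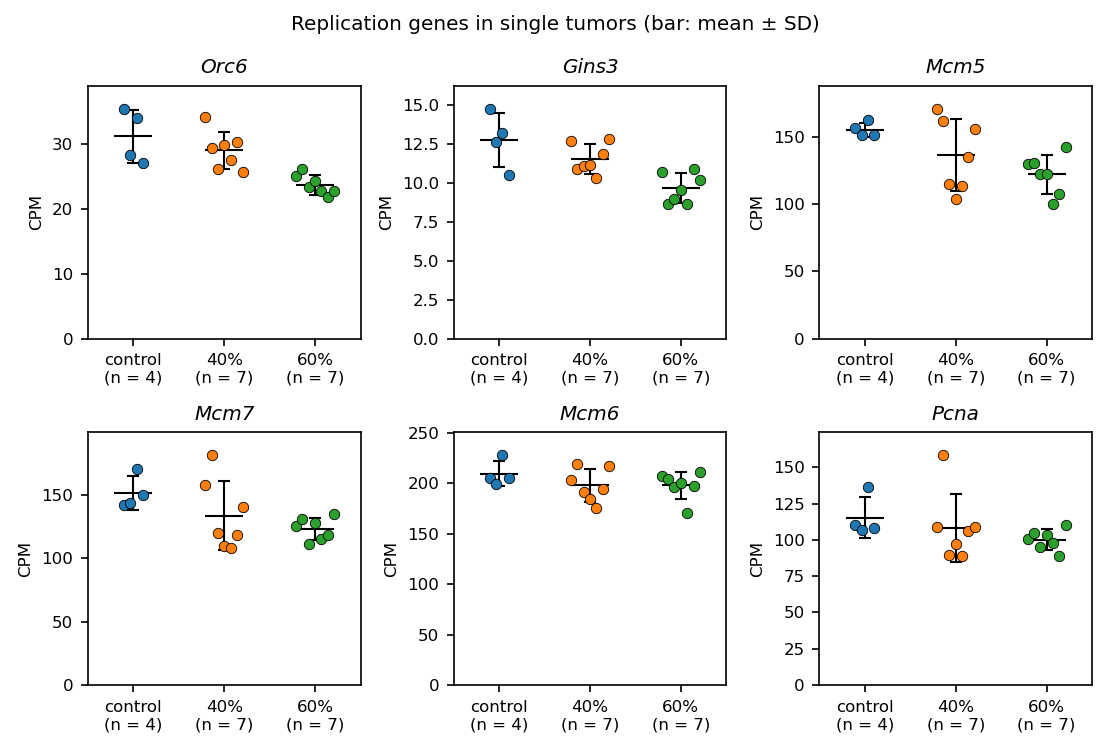
CPM of 6 replication genes in single tumors (points) with the mean and SD of each group (bars), for control (n = 4), 40% (n = 7) and 60% (n = 7) tumors; the vertical axes start at 0. *Orc6*, *Mcm5* and *Mcm7* show no overlap between control and 60% tumors, while *Mcm6* and *Pcna* overlap, and 40% tumor 2 stands at 158 CPM for *Pcna*.

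The helicase activation genes had a median log2 fold change of -0.23 over 6 genes, the same as the 10 licensing genes. *Gins4*, another GINS subunit, measured 40.5, 35.9, 42.6 and 38.0 CPM in controls and 31.6, 33.7 and 35.4 CPM at the lowest, median and highest 60% tumor. These groups did not overlap either, and the test fell just short of the threshold (log2 fold change -0.24, SE 0.069, adjusted p = 0.110, edgeR). *Cdc45*, which joins the ring and GINS, had a log2 fold change of -0.23 (adjusted p = 0.198, edgeR).

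Among genes of DNA synthesis none passed. The 7 polymerase and primase genes had a median log2 fold change of -0.12, from -0.25 for the primase subunit *Prim1* to -0.00 for the other primase subunit *Prim2*. For the 8 genes of the clamp, its loader and strand joining the median was -0.21. Among them *Rpa2*, a subunit of the single-strand binding protein RPA, measured 35.5, 31.7, 34.2 and 28.6 CPM in controls and 23.8, 26.0 and 30.2 CPM at the lowest, median and highest 60% tumor (log2 fold change -0.29, adjusted p = 0.131, edgeR). The clamp gene *Pcna* measured 110, 107, 137 and 108 CPM in controls and 88.9, 101 and 110 CPM at the lowest, median and highest 60% tumor. All control tumors but tumor 3 thus lay inside its 60% range. The 4 nucleotide supply genes (the ribonucleotide reductase subunits *Rrm1* and *Rrm2*, thymidylate synthase *Tyms* and thymidine kinase *Tk1*) had a median of -0.22.

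The 4 genes of G1/S control and methylation upkeep (*E2f1*, *Ccne1*, *Ccne2* and *Uhrf1*) had a median log2 fold change of -0.13 and differed widely among themselves. *Ccne1*, which encodes cyclin E1, measured 22.6, 21.3, 21.1 and 16.6 CPM in controls and 13.7, 16.3 and 17.8 CPM at the lowest, median and highest 60% tumor (log2 fold change -0.34, adjusted p = 0.284, edgeR). *E2f1*, an activator of S-phase genes, was at 62.8, 58.9, 65.1 and 56.0 CPM in controls and 56.8, 59.1 and 68.2 CPM at the lowest, median and highest 60% tumor, which left its groups indistinguishable. Of the recombination genes that act at stalled forks, *Brca1* measured 39.4, 40.4, 42.9 and 39.8 CPM in controls and 33.0, 37.1 and 39.2 CPM at the lowest, median and highest 60% tumor, a small difference without overlap (log2 fold change -0.17, adjusted p = 0.328, edgeR).

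**Figure D3:**
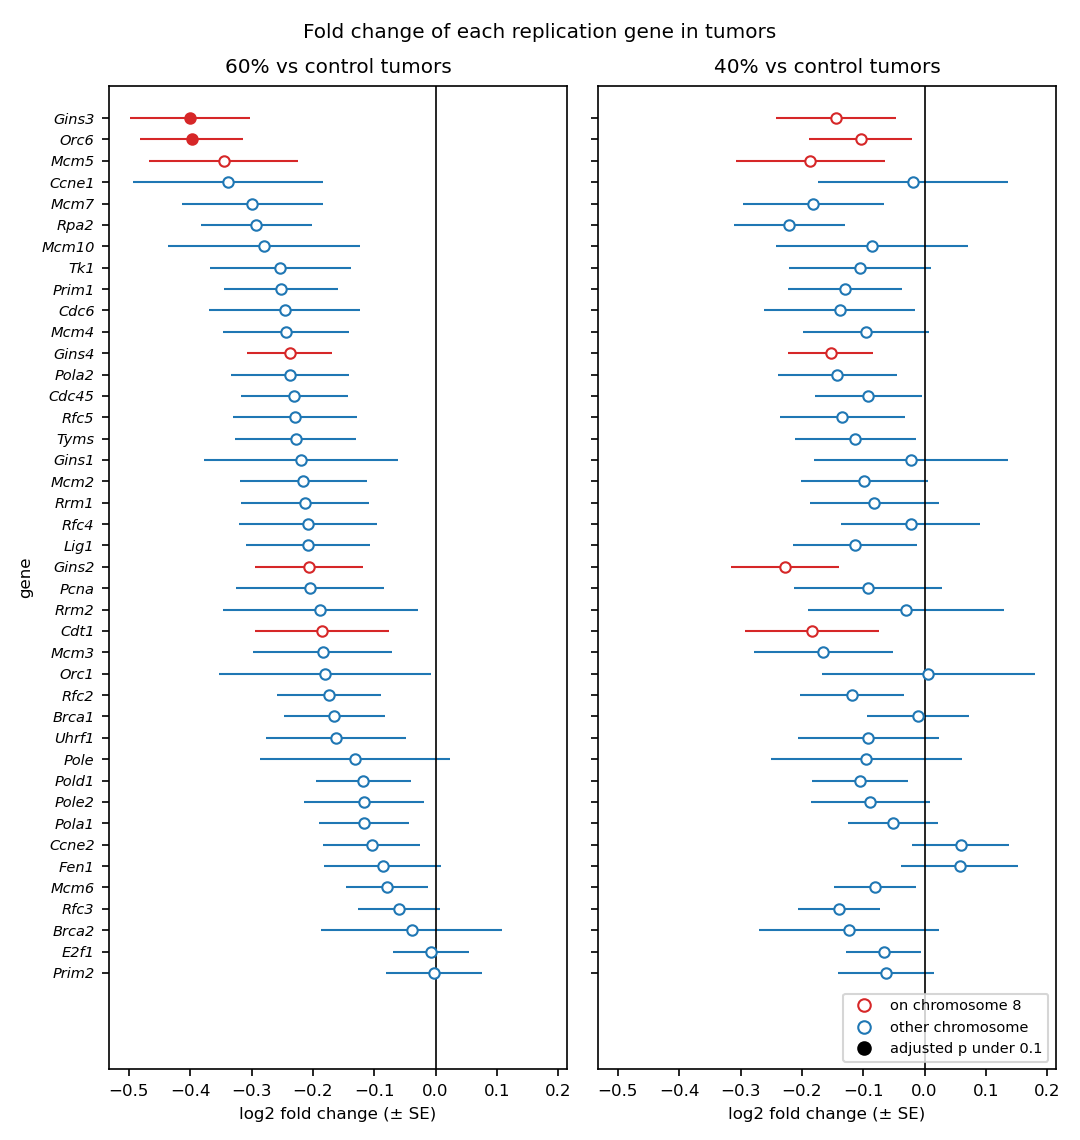
Log2 fold change with its SE for each of the 41 replication genes in 60% (left) and 40% (right) against control tumors, red for genes on chromosome 8, blue for others, filled where the adjusted p was under 0.1. All 41 points on the left lie at or left of 0 and the 2 filled ones, *Gins3* and *Orc6*, are on chromosome 8, while on the right 38 lie below 0 and none is filled.

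How many replication genes passed depended on the fit. With only the control and 60% tumors in the model, 9 were lower (*Orc6*, *Mcm4*, *Mcm5*, *Mcm7*, *Cdc45*, *Gins3*, *Gins4*, *Rpa2* and *Ccne1*, beside 3.63% of all genes), and with DESeq2 5 were (*Orc6*, *Mcm5*, *Gins3*, *Gins4* and *Rpa2*, beside 3.03%). The median of the 41 lay between -0.23 and -0.14 when single tumors were left out. Cell type markers are given beside these values, their summed levels without TMM scaling. Of 3 melanoma lineage markers tested, *Pmel* was lower in 60% tumors (log2 fold change -2.21, SE 0.51, adjusted p = 0.0456, edgeR), with 0.498 to 0.787 CPM against 0.584 to 8.79 CPM in controls, so that the groups overlapped. All 8 T and NK cell markers had positive log2 fold changes in 60% tumors, none past the threshold, and their summed level ran from 12.8 to 65.1 CPM against 11.9 to 37.9 CPM in controls. The summed level of 7 macrophage markers ran from 1007 to 1759 CPM in 60% and from 1170 to 1527 CPM in control tumors, that of 5 fibroblast markers from 2878 to 3797 and from 2941 to 4683 CPM, and that of 4 endothelial markers from 116 to 192 and from 153 to 215 CPM. None of these T and NK cell, macrophage, fibroblast and endothelial markers passed or was at 0 throughout a tumor group, and the part of the markers in the result was not tested.

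Both called genes, *Orc6* and *Gins3*, lie on chromosome 8, as do *Mcm5*, *Gins4*, *Gins2* and *Cdt1*. Those 6 genes had a median log2 fold change of -0.29 in 60% against control tumors. The other 35, off chromosome 8, had a median of -0.20 and all were negative, beside 50.6% of all genes. Of these 35, 10 had an unadjusted p under 0.05, beside 8.31% of all genes lower. By edgeR 0 passed the threshold, beside 1.34% of all genes lower. Off that chromosome 1 gene passed with DESeq2 (*Rpa2*) and 5 did with only the control and 60% tumors in the fit (*Mcm4*, *Mcm7*, *Cdc45*, *Rpa2* and *Ccne1*). Over all 860 genes tested on chromosome 8, the median was -0.069, 67.1% were negative and 5.93% were called lower, against 0.367% to 3.31% called lower on each of the 19 other chromosomes, whose medians ran from -0.079 to 0.081.

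**Figure D4:**
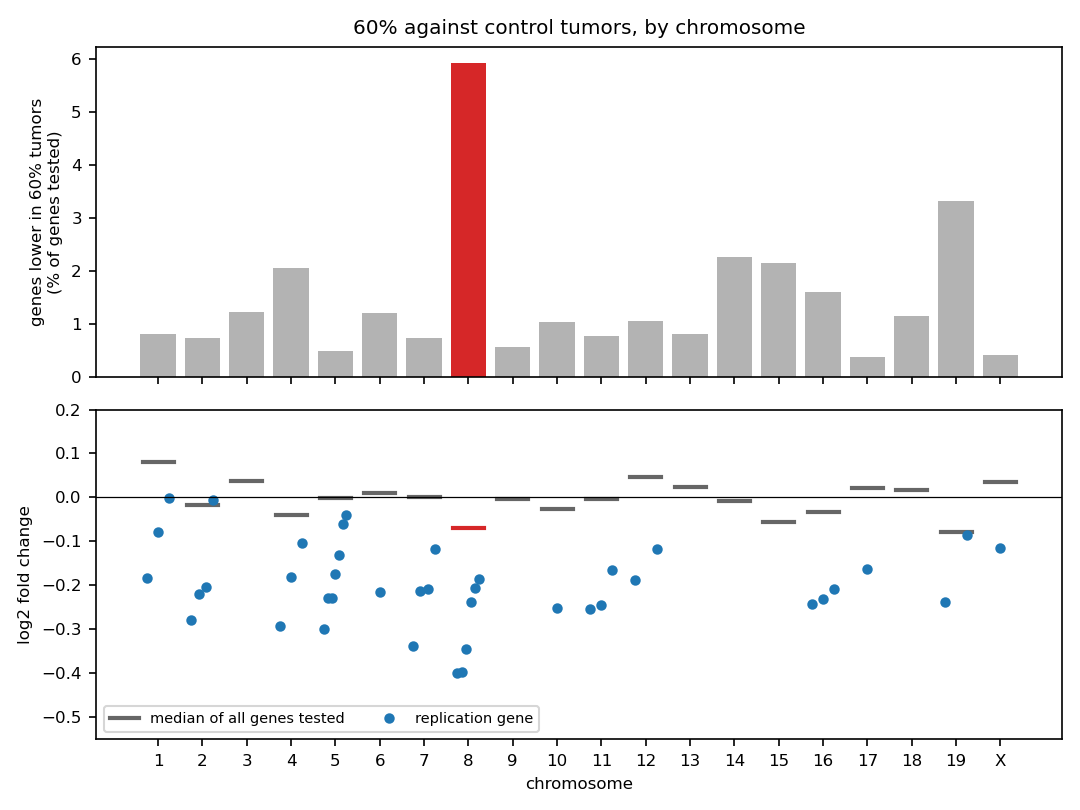
Upper panel, the percentage of genes tested on each chromosome that were lower in 60% than in control tumors (adjusted p under 0.1); lower panel, the median log2 fold change of all genes on that chromosome (line) and the 41 replication genes (points). Chromosome 8, in red, has the tallest bar (5.93%), and its 6 replication genes include the lowest points of the panel.

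The genes around the called ones were also below control on average. Within 5 Mb of *Orc6*, 98 other genes had a median log2 fold change of -0.13 and 9 were called lower. For *Gins3* the figures were 62 genes, -0.16 and 9, and for *Mcm5* 113 genes, -0.14 and 10. Around *Gins4*, *Gins2* and *Cdt1* the medians were closer to 0 (-0.04, -0.05 and -0.04). The 3 former genes were thus farther below control than the median of their neighbourhoods, which were themselves below the genome. Copy number was not analysed here.

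The promoters of *Orc6*, *Gins3* and *Mcm5*, the chromosome 8 genes farthest below control in 60% tumors, are shown because *Orc6* and *Gins3* lack the E2F letters that *Mcm5* carries. Each runs from 250 bases before to 50 bases after the canonical GENCODE start, read from the GRCm39 genome on the plus strand (chr8:86025977-86026276, chr8:96359831-96360130 and chr8:75835890-75836189). Capitals mark matches, on either strand, to the E2F letters, which were TTCCCGC or else TTGGCGC or else TTCGCGC or else TTGCCGC.
Orc6: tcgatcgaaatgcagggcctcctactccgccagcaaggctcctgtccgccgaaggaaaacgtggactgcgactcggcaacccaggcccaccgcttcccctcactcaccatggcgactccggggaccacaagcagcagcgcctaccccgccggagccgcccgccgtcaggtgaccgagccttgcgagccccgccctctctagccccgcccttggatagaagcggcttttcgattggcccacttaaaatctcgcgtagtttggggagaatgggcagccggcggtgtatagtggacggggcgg
Gins3: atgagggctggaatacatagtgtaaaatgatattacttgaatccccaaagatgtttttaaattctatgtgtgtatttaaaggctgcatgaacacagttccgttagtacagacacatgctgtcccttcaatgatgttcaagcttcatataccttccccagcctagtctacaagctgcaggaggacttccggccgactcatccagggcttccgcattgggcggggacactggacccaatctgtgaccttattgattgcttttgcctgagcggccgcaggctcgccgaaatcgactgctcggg
Mcm5: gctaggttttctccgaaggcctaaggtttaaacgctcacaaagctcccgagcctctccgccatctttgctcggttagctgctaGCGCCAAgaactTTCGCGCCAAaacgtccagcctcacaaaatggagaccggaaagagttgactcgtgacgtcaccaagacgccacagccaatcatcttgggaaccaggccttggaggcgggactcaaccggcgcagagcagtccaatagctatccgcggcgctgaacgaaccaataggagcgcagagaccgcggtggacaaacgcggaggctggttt
No match was found in the windows of *Orc6*, *Gins3*, *Gins4* and *Gins2*, while that of *Cdt1*, the remaining one on chromosome 8, held 2. That of *Mcm5* held 3, which began 167, 155 and 152 bases before the start, the last pair overlapping. A match is only a description of the letters.

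Tumors at 40% heteroplasmy, compared with the same 4 control tumors, showed no call among the replication genes. Of 41 log2 fold changes, 38 were negative (48.7% of all genes), with a median of -0.10, against 0.004 over all genes. By edgeR 0 of 41 passed, beside 0 of all 16213 genes, and by DESeq2 and limma-voom 0 of 41 did too, with 5 genes of the whole table by DESeq2. At an unadjusted p under 0.05, 3 were lower (*Gins2*, *Rpa2* and *Gins4*, beside 2.85% of all genes) and 0 were higher (2.24%). The smallest p was that of *Gins2*, a GINS subunit with 67.3% of its exon bases opposite exons of *Gse1*. It measured 27.7, 32.1, 34.5 and 32.4 CPM in controls and 22.6, 28.0 and 31.6 CPM at the lowest, median and highest 40% tumor (log2 fold change -0.23, SE 0.088, adjusted p = 0.924, edgeR). No replication gene was without overlap between 40% and control tumors, beside 0.278% of all genes lower and 0.173% higher.

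*Orc6* measured 25.7, 29.4 and 34.1 CPM at the lowest, median and highest 40% tumor (mean 29.0 ± 2.89 CPM, SD, n = 7), inside the control range but for its lowest values. *Gins3* ran from 10.3 to 12.8 CPM with a median of 11.1 CPM, and *Mcm5* from 103 to 171 CPM with a median of 135 CPM. The spread of *Mcm5* in 40% tumors (SD 26.8 CPM) was wider than in controls (SD 5.29 CPM). Over the list, 40% tumor 2 was the highest of 18 tumors for 26 of 41 genes. Without that tumor the median log2 fold change was -0.17, and without control tumor 3 it was -0.03.

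The direct comparison of 60% with 40% tumors had 1 call. *Orc6* was lower at 60% (log2 fold change -0.29, SE 0.073, adjusted p = 0.0674, edgeR), beside 0.993% of all genes lower, and 0 replication genes were higher beside 0.814%. Its highest 60% value, 26.1 CPM, lay just above its lowest 40% value, 25.7 CPM, so the groups met at that edge. No replication gene was without overlap here, beside 0.308% of all genes lower and 0.315% higher. *Ccne1* had a larger log2 fold change with a wider spread (-0.32, adjusted p = 0.281, edgeR) and *Gins3* a similar one (-0.26, adjusted p = 0.160, edgeR), and neither passed. The median of the 41 was -0.11 (all genes -0.004), 35 were negative beside 51.1% of all genes, and 5 had an unadjusted p under 0.05 in the lower direction beside 7.12% of all genes and 0 in the higher direction beside 6.97%. Leaving out 60% tumor 1, 4 or 7 or 40% tumor 1 or 6 raised the adjusted p of *Orc6* to between 0.107 and 0.128, and without 40% tumor 2 the median of the 41 was -0.03. The summed level of 4 skeletal muscle markers ran from 1.32 to 205 CPM at 60%, from 34.8 to 185 CPM at 40% and from 1.06 to 135 CPM in controls. Its medians were 1.61, 106 and 59.5 CPM, without TMM scaling. The part of muscle tissue in the result was not tested.

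The 3 group means followed heteroplasmy for most genes of the list. They ran control over 40% over 60% for 32 of 41 genes (78.05%), beside 22.9% of all genes. The reverse order was found for 0 of the 41, beside 3781 of all 16213 genes. This is a description, since the 3 groups are compared in pairs that share tumors. Averaged over the 41 genes, log2 CPM lay between 5.48 and 5.71 in control tumors, between 5.28 and 5.81 in 40% tumors and between 5.23 and 5.51 in 60% tumors, so that single tumors of the groups overlapped.

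Genes of the same pathway that were not on the list were examined in the same fit. Of 104 tested genes in 6 lists (licensing and origin, fork and synthesis, nucleotide supply, chromatin assembly, G1/S control, and recombination and checkpoint), 80 had negative log2 fold changes in 60% against control tumors, with a median of -0.12. By edgeR 3 were called lower and 0 higher, beside 1.34% and 0.962% of all genes, of which 50.6% were negative. These were *Asf1b*, a histone chaperone (log2 fold change -0.48, SE 0.12, adjusted p = 0.0633), *Tfdp1*, the dimer partner of E2F factors (-0.29, adjusted p = 0.0331), and *E2f4*, an E2F factor that mainly represses (-0.28, adjusted p = 0.0697, edgeR). All 3 lie on chromosome 8, and all 3 lost the call without control tumor 3 (adjusted p between 0.199 and 0.286), as *Asf1b* and *E2f4* did without control tumor 1 (0.237 and 0.230) or without 60% tumor 1 or 4, and *E2f4* also without 60% tumor 5 or 7. Together with *Orc6* and *Gins3*, all 5 called genes among the 145 replication genes and pathway genes tested were on that chromosome, which held 13 of the 145 (8.97%) and 5.33% of all genes tested. In 60% against 40% tumors 2 of the 145 were called, *Orc6* and *Rnaseh2a*, a ribonuclease H2 subunit (log2 fold change -0.25, SE 0.060, adjusted p = 0.0575, edgeR). Both lie on chromosome 8, where 2.09% of all genes tested were called lower in this comparison. The shares on the 19 other chromosomes ran from 0.404% to 4%, the last on chromosome 16. *Rnaseh2a* missed the threshold without 60% tumor 1, 2 or 7 (adjusted p between 0.106 and 0.116).

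Genes of mitosis peak later in the cycle than replication genes. All 28 had a negative log2 fold change in 60% against control tumors, the median was -0.28, and 5 were lower and 0 higher, beside 1.34% and 0.962% of all genes, of which 50.6% were negative. They included *Prc1*, which bundles spindle microtubules (log2 fold change -0.25, SE 0.050, adjusted p = 0.0176), *Cdc20*, an activator of the anaphase-promoting complex (-0.44, adjusted p = 0.0614), *Incenp*, a scaffold of the Aurora B complex (-0.33, adjusted p = 0.0614), and *Hmmr* (-0.34, adjusted p = 0.0780, edgeR). In 60% against 40% tumors 28 of 28 were negative, beside 51.1% of all genes, with a median of -0.20. Only *Prc1* passed there (-0.17, adjusted p = 0.0668, edgeR), beside 0.993% of all genes lower. Without control tumor 3 these 4 genes missed the threshold against control (adjusted p between 0.124 and 0.427). Without control tumor 1 or 60% tumor 4 all of them but *Prc1* missed it too, as did *Cdc20* and *Hmmr* without 60% tumor 3 and *Hmmr* without 60% tumor 2 or 5. *Prc1* in 60% against 40% tumors missed it without any 1 of 60% tumors 1, 4 and 7 and 40% tumors 1 and 6. No test compared the mitosis list with the replication list.

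In culture, with no host cells present, the question was whether m.11,944G>A at 60% went with a different level of replication RNA. Without regard to the numbering of cultures, 0 of 41 passed by edgeR, beside 0.00773% of all genes higher and 0.0309% lower. DESeq2 and limma-voom also gave 0 of 41, and 1 (*Brca2*, higher, beside 1.85% of all genes) had an unadjusted p under 0.05 by edgeR, with 0 lower beside 2.27%. Only *Brca2* was without overlap between the lines, beside 1.62% of all genes higher, and 0 were lower without overlap, beside 1.86%. The median log2 fold change was 0.07, with 29 positive and 12 negative beside 51% of all genes negative, and it moved from -0.12 without m.11,944 replicate 3 to 0.30 without control replicate 3. Same-numbered cultures of both lines deviated together, so a fit in which the number serves as a block is given too.

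With the replicate block, 3 replication genes were higher in m.11,944 60% than in control cells (beside 3.02% of all genes) and 1 was lower (beside 4.09%). At an unadjusted p under 0.05, 10 were higher beside 11.1% of all genes and 1 was lower beside 11%, and 11 of the 41 log2 fold changes were negative beside 48.9% of all genes, with a median of 0.12. *Brca2*, which acts in recombination at damaged forks, measured 21.0, 25.6, 30.4 and 28.2 CPM in control replicates 1 to 4 and 30.7, 31.5, 40.9 and 33.7 CPM in the m.11,944 ones. All m.11,944 cultures were above all control cultures (log2 fold change 0.38, SE 0.081, adjusted p = 0.0458 with the block, edgeR; adjusted p = 1.00 without it). *Brca1* measured 19.8, 21.8, 68.4 and 62.0 CPM in control and 32.6, 35.9, 76.6 and 68.6 CPM in m.11,944 cells (0.42, SE 0.11, adjusted p = 0.0819 with the block). *Lig1*, the ligase that joins Okazaki fragments, measured 106, 97.1, 233 and 270 CPM in control and 138, 138, 276 and 277 CPM in m.11,944 cells (0.29, SE 0.080, adjusted p = 0.0848 with the block).

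In both of these genes the groups overlapped, but each m.11,944 culture was above the control culture of its own number. *Orc6* went the other way, with 56.2, 53.7, 90.8 and 63.4 CPM in control and 44.9, 46.0, 67.4 and 60.3 CPM in m.11,944 cells, lower in each of the 4 pairs (-0.26, SE 0.076, adjusted p = 0.0963 with the block). *Uhrf1*, which guides methylation of new DNA, lay at the edge of the threshold (0.43, adjusted p = 0.1001 with the block). These calls depended on single pairs and on the tool. Without pair 1 or without pair 2, 0 replication genes passed with the block, and without pair 3 *Lig1* and *Orc6* no longer did. The count over all genes fell too, from 919 to 89 without pair 1, 110 without pair 2 and 602 without pair 3. With limma-voom and the block, *Brca1* and *Orc6* did not pass, while *Lig1*, *Uhrf1* and *Brca2* did.

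The difference between lines was not the same at each culture number. The median over the 41 genes was 0.27 in replicates 1 and 2, with 32 genes higher in m.11,944 cells, and -0.03 in replicates 3 and 4, with 16 higher. Higher in all 4 pairs were 10 genes (24.4%, beside 14.0% of all genes), namely *Orc1*, *Pola2*, *Pole*, *Pole2*, *Rpa2*, *Lig1*, *E2f1*, *Uhrf1*, *Brca1* and *Brca2*. Lower in all 4 pairs were *Orc6*, *Mcm2* and *Mcm3* (7.32%, beside 14.7% of all genes). Of the other pathway genes, 101 were tested with the block, and 8 were higher and 4 lower, beside 3.02% and 4.09% of all genes. The smallest p-values were those of *Myc*, a growth regulator (-0.61, adjusted p = 0.0344), *Cdkn1a*, which encodes the inhibitor p21 (-0.29, adjusted p = 0.0458), *Timeless*, of the fork protection complex (0.38, adjusted p = 0.0604), and *Fanci*, of the Fanconi repair pathway (0.49, adjusted p = 0.0639, edgeR with the block). Among 28 mitosis genes only *Mki67* passed (0.34, adjusted p = 0.0398 with the block). Without the block none of these 5 named genes passed. With single cultures left out of that fit, *Myc* ran from -1.02 to -0.42 and *Cdkn1a* from -0.39 to -0.18. *Timeless* ran from 0.09 to 0.58, *Fanci* from 0.19 to 0.72 and *Mki67* from 0.04 to 0.63. With the block, 12.2% of the genes tested on chromosome 8 were lower in m.11,944 cells. The 19 other chromosomes ran from 1.07% to 15.7%, and the highest share was that of chromosome 16, which holds *Mcm4*, *Cdc45* and *Rfc4*. Chromosomes 1 and 15, for example, had 4.83% and 4.79%. Of the 78 genes within 5 Mb of *Orc6*, 17 were lower, with a median of -0.14.

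A larger contrast lay between cultures of one line. Replicates 3 and 4 held more replication RNA than replicates 1 and 2 in both lines, for 39 of 41 genes, with a median log2 difference of 0.86 against 0.00 over all genes. In both lines 38 genes were higher without overlap (31.1% of all genes) and 2 were lower without overlap (31.1%). The labels do not say what separates these cultures, so the values are a description with no test.

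**Figure D5:**
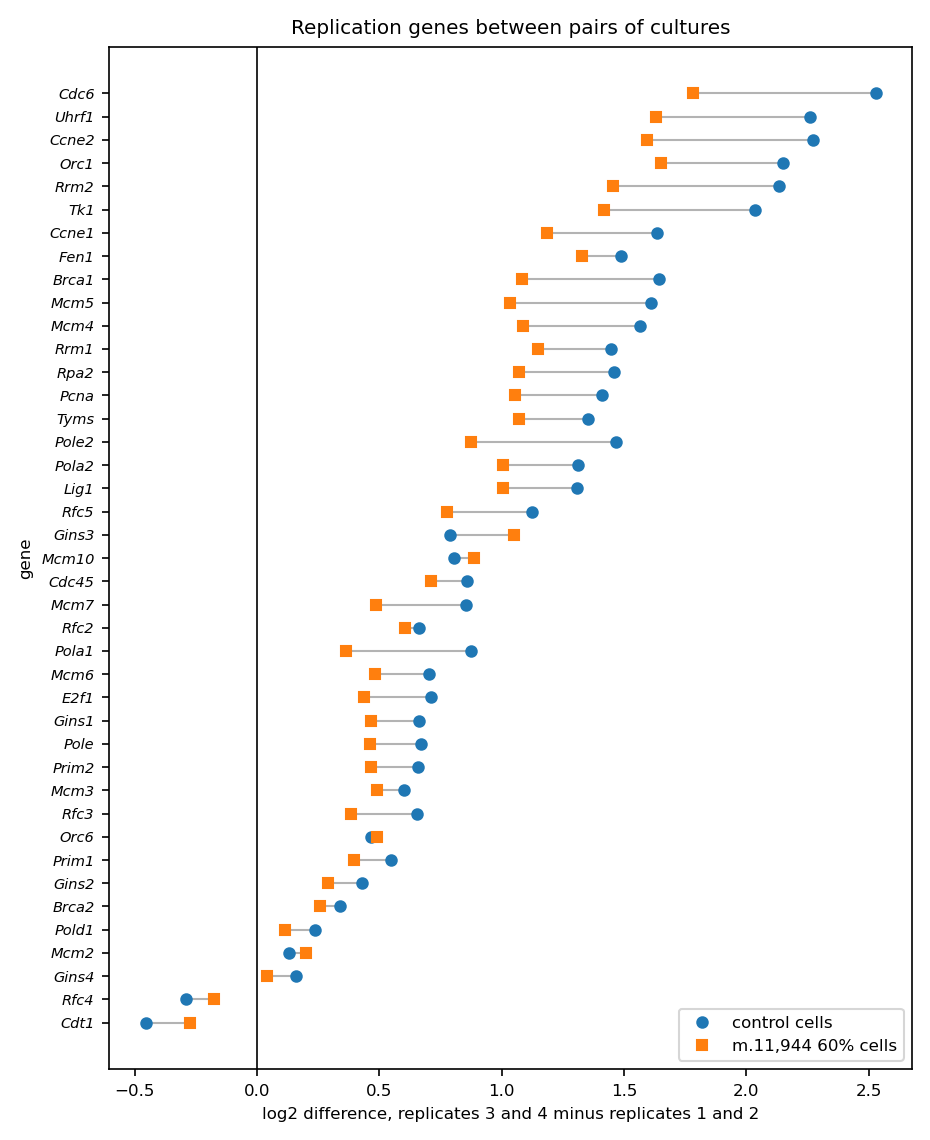
Log2 difference between culture replicates 3 and 4 and replicates 1 and 2 for each of the 41 replication genes, in control cells (circles) and m.11,944 60% cells (squares). Genes are sorted by the difference from 1 fit of both lines with the line as a term. *Cdc6* leads with a fitted difference of 2.17 (circle 2.53, square 1.78). *Cdt1* and *Rfc4* lie below 0, and for 35 of 41 genes the circle is farther right than the square.

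Licensing genes held both the highest and the lowest difference. *Cdc6*, an MCM loader, measured 11.96, 13.1, 86.1 and 60.9 CPM in control replicates 1 to 4 and 21.7, 19.8, 82.3 and 62.0 CPM in m.11,944 ones, a 4.50-fold difference (2.17 on the log2 scale). Its partner *Cdt1* ran the other way, with 199, 180, 145 and 131 CPM in control and 176, 153, 149 and 123 CPM in m.11,944 cells (-0.36). *Orc1*, the largest origin recognition subunit, measured 3.55, 3.96, 18.8 and 15.2 CPM in control and 6.16, 5.53, 19.9 and 17.2 CPM in m.11,944 cells (1.91). The helicase ring differed less and unevenly, with a median of 0.63 over MCM2 to MCM7 and a range from 0.17 for *Mcm2* to 1.33.

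Among the roles of the 41 genes, nucleotide supply and G1/S control with methylation upkeep, 4 genes each, differed most. Their median log2 differences were 1.51 and 1.68. The lists of other pathway genes had lower medians, 0.49 for nucleotide supply (10 genes) and 0.35 for G1/S control (27 genes tested). *Rrm2*, the cell-cycle-regulated subunit of ribonucleotide reductase, measured 63.8, 57.7, 329 and 216 CPM in control and 93.3, 92.1, 291 and 222 CPM in m.11,944 cells (1.81). *Ccne2*, which encodes cyclin E2, measured 13.3, 13.5, 75.8 and 56.0 CPM in control and 19.3, 21.3, 63.6 and 58.8 CPM in m.11,944 cells (1.94). In each of these genes the first 2 cultures of the control line were the lowest of the 8. *Uhrf1* measured 58.3, 62.0, 329 and 254 CPM in control and 103, 100, 355 and 278 CPM in m.11,944 cells (1.96), and *Tk1* 51.0, 52.0, 209 and 213 CPM and 71.1, 82.1, 207 and 201 CPM (1.72).

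The polymerase and primase group had a median of 0.57 and the clamp, loader and strand joining group 1.06, in which *Pcna* stood at 1.24. *Rfc4*, a clamp loader subunit with 29.1% of its exon bases opposite another gene, was the other gene below 0, with 45.4, 45.1, 34.97 and 39.2 CPM in control and 42.1, 45.6, 39.2 and 38.3 CPM in m.11,944 cells (-0.23). *Gins4* barely moved (0.10), at 53.2, 53.5, 58.1 and 60.9 CPM and 49.9, 57.8, 52.9 and 57.8 CPM. The mitosis list had a median of 0.64 with 27 of 28 positive. *Myc*, singled out after its value was seen, had a difference of -1.66, opposite in sign to most replication genes.

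The promoters of *Cdc6* and *Uhrf1*, chosen after their values were seen as the genes with the largest difference between cultures, are shown to set their E2F letters beside those of *Mcm5* above. They lie on the plus strand at chr11:98798377-98798676 and chr17:56610025-56610324 (GRCm39, the same window).
Cdc6: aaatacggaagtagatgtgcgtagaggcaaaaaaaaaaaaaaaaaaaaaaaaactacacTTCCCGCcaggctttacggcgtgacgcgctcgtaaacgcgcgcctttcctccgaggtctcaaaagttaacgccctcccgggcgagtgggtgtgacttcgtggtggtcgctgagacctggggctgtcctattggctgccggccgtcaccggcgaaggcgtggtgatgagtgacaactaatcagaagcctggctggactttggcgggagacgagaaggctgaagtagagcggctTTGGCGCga
Uhrf1: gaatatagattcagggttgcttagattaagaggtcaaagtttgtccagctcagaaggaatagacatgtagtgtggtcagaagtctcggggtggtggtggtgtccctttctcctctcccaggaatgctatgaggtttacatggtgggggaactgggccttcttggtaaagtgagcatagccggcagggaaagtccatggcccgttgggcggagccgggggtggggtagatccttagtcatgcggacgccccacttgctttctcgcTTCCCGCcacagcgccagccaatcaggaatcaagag
*Cdc6* held 2 matches, beginning 191 bases before and 41 bases after the start, and *Uhrf1* held 1, beginning 14 bases after it. At least 1 match was found in 21 of 41 replication promoters (51.2%), in 17.9% of the 28 mitosis promoters and in 14.7% of 13624 promoters of protein-coding genes tested. For at least 2 matches the shares were 24.4%, 3.57% and 1.84%. The letters TTTGAA, the core of the element named CHR that is known from mitotic promoters, were found on either strand in 7.32% of replication, 50% of mitosis and 13.9% of all promoters, and the letters CCAAT in 56.1%, 67.9% and 39.5%. The difference between cultures had a median of 1.17 in the 21 genes with an E2F match and 0.82 in the 20 without, but 0.59 in the 10 with at least 2. In 60% against control tumors the medians were -0.18 with and -0.22 without a match, and both *Orc6* and *Gins3* were without.

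Levels could be compared between genes only per length, as CPM per kilobase of exon. In control tumors *Pcna* was the highest at 48.1, followed by *Mcm6* at 38.5, *Lig1* at 32.6, *Uhrf1* at 29.3 and *Cdt1* at 27.9 CPM per kilobase, and the lowest were *Mcm10* at 2.91, *Brca2* at 1.23 and *Orc1* at 1.09. In control cells *Pcna* (81.2) and *Mcm6* (66.7) also led and *Brca2* (1.60) was the lowest. Tumors and cultures were scaled separately, so levels were not compared between them. For 14 of 41 genes over 10% of the exon bases lay within exons of another gene, mostly on the opposite strand (13 genes), with the largest shares in *Gins2* (67.3%) and *Fen1* (66.0%). Reads of such genes cannot be assigned without strand, while *Gins3*, *Mcm5*, *Cdc6* and *Uhrf1* shared no exon bases.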

How the data were processed

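The authors aligned reads from RNA sequencing to the mouse genome GRCm39 with STAR and counted them per gene with featureCounts on an Ensembl annotation, and the deposited table holds those raw counts, with no normalization; the strand setting is not given in the sources used here. Of 47 columns, 26 were matched to 1 sample by the column's name and number read with the labels and the headings of the study's source data, which call 60% high and 40% low, and 21 were not used. Counts were tested with edgeR 4.0.16 in R 4.3.3 (filterByExpr, TMM, robust quasi-likelihood fit, adjusted p under 0.1), with the 18 tumors in 1 fit and the 8 cultures in another; DESeq2 1.42.0 and limma 3.58.1 were alternatives. CPM used a prior count of 2 on the log2 scale. The fits were tested on simulated data. Deviations of same-numbered cultures from their group means correlated at 0.718 to 0.832 in all 4 pairs (other pairs averaged -0.264), and those of tumors did not. The negative average largely follows from centering each group on its own mean. Both lines also share the contrast between the first and the last culture numbers, which alone gives high values. The check therefore cannot show that cultures pair by number. Members and lists were chosen with earlier results of these data known. Replication genes could all be named. Full statistics went to those past the threshold or with the smallest p, up to 4 genes were named of each other list, and promoters were printed for 3 of the 6 genes with the smallest p in 60% against control tumors (*Orc6*, *Gins3*, *Mcm5*) and, chosen after their values were seen, for *Cdc6* and *Uhrf1*. The GENCODE annotation named 56017 of 56748 genes. Left out were the columns above and samples without a matched column.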

Additional observations from a re-analysis of the deposited data

Results flagged for a closer look

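Dixon's criterion at 95% was applied in groups of 4 to 10 samples. The highest or lowest sample stood far from the others in 11 of 210 groups of values tested. These were 8 of 42 in 40% tumors, 2 of 42 in control tumors, 1 of 42 in 60% tumors and 0 in cultures. Genes of 1 library vary together, so this count cannot be set against a rate by chance. Of the 11, 8 were high values of 1 library, 40% tumor 2: *Brca1* (51.8 CPM, next 41.2), *Ccne1* (33.7, next 19.4), *Cdc6* (40.2, next 29.7), *Fen1* (21.3, next 16.1), *Mcm10* (43.7, next 29.7), *Pcna* (158, next 109), *Rpa2* (35.5, next 28.6) and *Rrm1* (183, next 144 CPM). Control tumor 3 was high for *Pcna* (137, next 110.0 CPM) and *Rrm1* (171, next 138 CPM), and 60% tumor 5 was low for *Mcm6* (170.0, next 196 CPM). The difference of *Orc6* between 60% and 40% tumors, at -0.29 on the log2 scale, is listed because it is a tested difference between both heteroplasmy levels.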

How the results depend on the processing

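The median log2 fold change of the replication genes kept its sign in tumors under every alternative run: with single tumors left out it ran from -0.23 to -0.14 in 60% against control, from -0.17 to -0.03 in 40% against control and from -0.14 to -0.03 in 60% against 40% tumors. In cultures it ran from -0.12 to 0.30, so its sign turned. Counts moved more, and the cause was not tested. For replication genes in 60% against control tumors (2), DESeq2 gave 5, only the 2 groups compared 9, no filter 1 and an adjusted p under 0.05 1, and single tumors left out gave 0 to 4. In 60% against 40% tumors (1), DESeq2 gave 2, an adjusted p under 0.05 gave 0, and single tumors left out gave 0 to 1. For all genes in 60% against control tumors (374) the counts were 1056 with DESeq2, 943 with only the 2 groups and 150 at 0.05, and 66 to 724 with single tumors left out. In 40% against control tumors (0) DESeq2 gave 5, with 0 to 4. In 60% against 40% tumors (293) it gave 744, with 178 without a filter, 113 at 0.05 and 108 to 452. In cultures (5) DESeq2 gave 84, at least 10 counts in every sample 0, and single cultures left out 0.

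With tumor numbers as a block, 0 replication genes passed in 60% against control tumors (*Orc6* adjusted p = 0.189, *Gins3* 0.161). The numbers do not pair the tumors (mean correlations of same-numbered tumors -0.156, -0.006 and -0.026). In cultures the replicate block gave 4 replication genes and 919 of all genes. Chosen after seeing the data, the block with limma-voom gave 3 (without *Brca1* and *Orc6*), with DESeq2 5, and with 1 pair left out 0 to 7. Over all genes the counts were 882 with limma-voom, 1022 with DESeq2 and 89 to 2092 with 1 pair left out.

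For named genes 624 values kept direction and side of the threshold, 27 gained and 53 lost it, and 4 reversed, all in cultures without the block: *Uhrf1* (from -0.13 without m.11,944 replicate 3 to 0.75 without control replicate 3) was also -0.04 and -0.03 without control replicates 1 and 2, and *Gins3* ran from -0.38 without m.11,944 replicate 3 to 0.082 without control replicate 3. Where a group kept few tumors, the spread came from all groups of the fit. Each replication gene had at least 79 counts in every library, and the control group held 4 tumors.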

Other observations

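Outside the list, the largest differences between culture replicates 3 and 4 and replicates 1 and 2 among the named pathway lists, singled out after their values were seen, were those of *Dna2* (3.02), a nuclease that trims Okazaki fragments, and *Donson* (2.52), which helps assemble the helicase, on the log2 scale. *Rrm2b*, a ribonucleotide reductase subunit induced by p53, differed by -1.22, while *Rrm2* differed by 1.81. These values are a description of 4 against 4 cultures over both lines.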
